A study of Mus musculus with 12 samples.

Results

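Of 12845 genes measured in sorted cells of the mouse fetal gonad, 42 encode nucleoporins or nuclear transport receptors by their symbols: every gene whose symbol consists of Nup, Kpna, Kpnb, Ipo, Tnpo or Xpo followed by its number, with Xpot included. These 42 members comprise 20 nucleoporins and 22 transport receptors, and all 42 are described. They were chosen by name and not by level. RNA was sequenced from gonads at E13.5 (embryonic day), taken from embryos of strain Oct4GFPxICR, whose fathers carried the Oct4GFP reporter. Cells positive for the reporter were sorted as primordial germ cells (PGCs, the precursors of sperm and eggs), and reporter-negative cells were sorted as soma, which is a mixture of every other gonadal cell. The 4 groups were PGC and soma of males and PGC and soma of females, each with 3 libraries, all of 1 strain, age and reporter, with no drug or mutation. The labels do not say whether gonads were pooled or whether replicates came from separate embryos, so SDs, SEs and p-values measure the spread between these libraries, which may be technical.

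The nuclear pore is a channel through the nuclear envelope built from many copies of each nucleoporin. Scaffold nucleoporins of the Y complex and the inner ring shape the pore, a membrane nucleoporin anchors it, and nucleoporins rich in phenylalanine-glycine (FG) repeats fill the channel. Importin alpha proteins bind a nuclear localization signal and ride with importin beta, other importins and transportins bind cargo directly, and exportins carry cargo out; the small GTPase Ran sets the direction. Germ cells at this stage differ by sex, since female PGCs are entering meiosis while male PGCs are entering mitotic arrest.

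Each library held between 6454322 and 24791414 reads on the 12845 genes, and the 42 members averaged between 151.5 and 12296 reads a library. The deposited values are 2 sets of log2 values for the same genes, one scaled to read depth, which gives relative composition, and one scaled to cell number through spike-in RNA added per sorted cell. Levels below are CPM, reads scaled to the library total, while log2 fold changes come from the deposited values. Across the members, a doubling of reads moved the read depth values by 0.77, so those fold changes understate the change in reads. The label check held in all 12 libraries: summed over 6 germ cell markers, PGCs had 3002 to 4339 CPM and soma 10.1 to 149.7 CPM. Female soma replicates 1 and 2 stood apart with 89.7 and 149.7 CPM of germ cell markers, against 15.8 CPM in replicate 3 and at most 16.8 CPM in male soma. Gonadal soma markers summed to 785 to 1856 CPM in soma and at most 32.1 CPM in PGCs. Summed erythroid markers reached 17493 to 29387 CPM in female soma and 3358 to 8529 CPM in male soma, against at most 9.82 CPM in PGCs. Summed macrophage markers were at 121 to 386 CPM and endothelial markers at 77.8 to 129.9 CPM in soma, against at most 8.99 and 5.74 CPM in PGCs. In such sorted bulk samples, fewer cells of a type and less RNA per cell cannot be told apart.

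Nuclear pore and transport genes made up a larger share of reads in PGCs than in soma, in both sexes. Summed over the 42 members, male PGCs had 10655 to 11444 CPM and male soma 5007 to 5088 CPM, a ratio of means of 2.17. Female PGCs had 8953 to 9275 CPM and female soma 5016 to 5496 CPM, a ratio of 1.72. The PGC and soma libraries did not overlap in either sex.

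Gene by gene, 37 of 42 members were higher in PGCs averaged over the sexes (88.1%), where 41.4% of all genes were higher at an adjusted p under 0.05 (limma, Benjamini-Hochberg over all genes). The members' median log2 fold change was 0.86, and that of all genes was -0.04. Only Tnpo2 and Ipo9 were lower, where 45.3% of all genes were lower. Nup50, Ipo13 and Ipo7 did not pass the test, with log2 fold changes of 0.10, -0.01 and -0.08. Ipo7 passed as lower with reads tested by limma's voom (-0.17, adjusted p = 0.0488) and without male PGC replicate 2 (-0.12, limma adjusted p = 0.0351). In males 35 members were higher (all genes 39.1%) and 2 lower (all genes 43.7%), and in females 31 were higher (all genes 38.7%) and 2 lower (all genes 42.3%). In all, 28 members were higher in both sexes, which is 66.7% of members against 28.9% of all genes. For 28 members the PGC libraries were all above the soma libraries of their sex in both sexes on the read depth values (29.6% of all genes), and for 2 they were all below (34.1% of all genes). The PGC libraries have lower medians on these values than soma. With library medians set equal, the median of all genes moved from -0.04 to 0.18 and the counts became 40 members higher and 1 lower. Nup50, Ipo13 and Ipo7 then passed as higher, so the direction in which Ipo7 passed depended on the setting. The call for Ipo9 was lost (log2 fold change -0.08, limma adjusted p = 0.204).

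**Figure D1:**
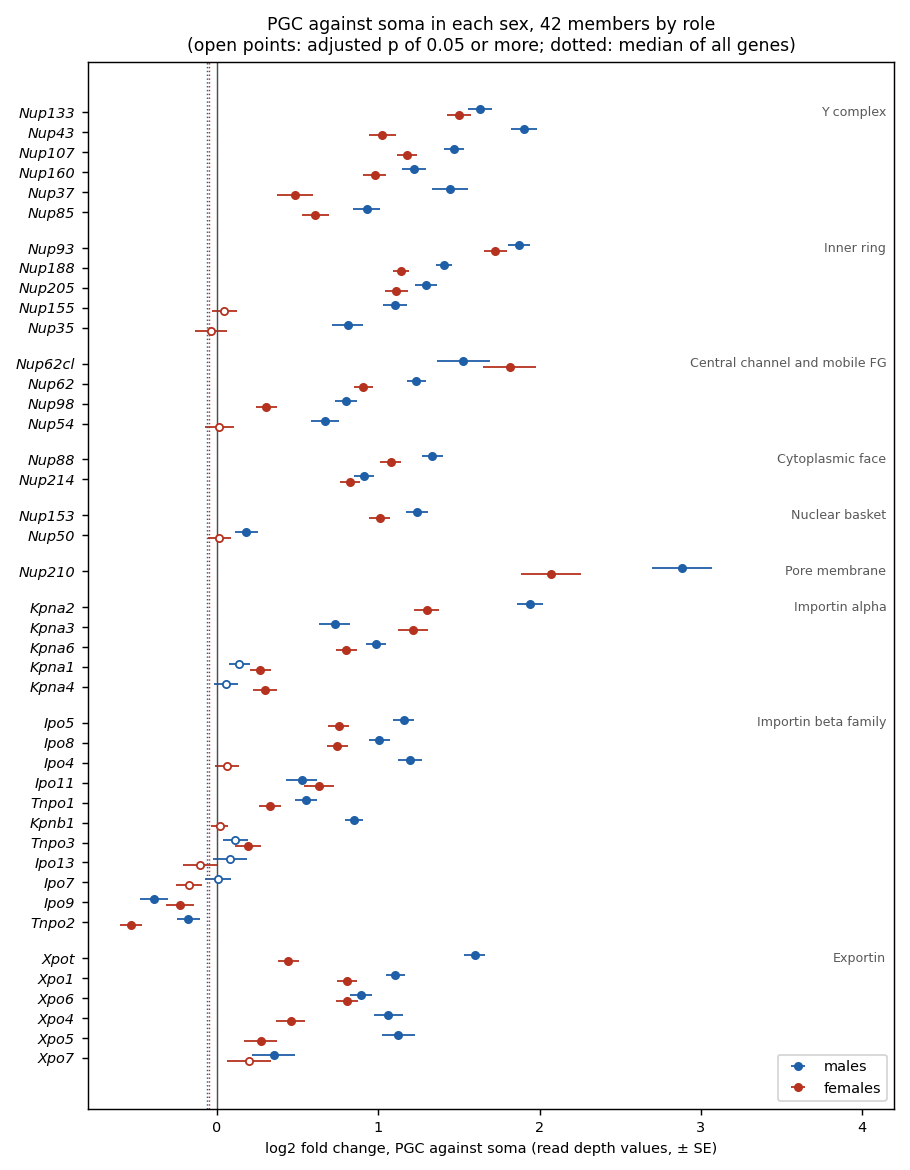
Log2 fold change of PGC against soma (read depth values, ± SE, 3 libraries a group) for each of the 42 members in males (blue) and females (red), ordered by role and then by the average over the sexes. Open points have an adjusted p of 0.05 or more, and dotted lines mark the medians of all genes. Most points lie to the right of 0, Nup210 is farthest right, and Tnpo2 and Ipo9 lie to the left in both sexes.

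Nup210 rose most of the 42 members. Nup210, a transmembrane nucleoporin of the pore membrane, had 231, 259 and 229 CPM in male PGC replicates 1 to 3 and 21.0, 17.5 and 20.2 CPM in male soma. In females it had 404, 346 and 354 CPM in PGCs and 40.6, 106 and 51.7 CPM in soma. The groups did not overlap in either sex, and female soma replicate 2 was the highest soma value. That library also had the most germ cell and the most macrophage marker reads of the soma libraries. Nup210 rose by a log2 fold change of 2.48 ± 0.13 (SE) averaged over the sexes (limma adjusted p = 2.48e-10).

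All 6 Y complex genes named Nup rose, with a median log2 fold change of 1.21 and a range of 0.77 (Nup85) to 1.57 (Nup133). The Sec13 subunit of the complex, not a member by its symbol, was lower in PGCs and is given with the other lists below. This complex forms the outer rings of the pore and is also needed at kinetochores in mitosis. Nup133 had 289, 283 and 249 CPM in male PGCs against 69.9, 66.2 and 76.4 CPM in male soma. In females its levels were 281, 306 and 298 CPM in PGCs against 77.4, 90.7 and 70.3 CPM in soma. The PGC levels of Nup133 overlapped between the sexes, and both lay far above soma (limma adjusted p = 2.97e-12). Nup43, a beta-propeller subunit of the complex, had 76.7, 86.0 and 73.9 CPM in male PGCs and 13.1, 14.2 and 15.4 CPM in male soma, with 50.3, 53.9 and 50.2 CPM in female PGCs and 19.9, 18.4 and 19.96 CPM in female soma. No library of one group reached another group's range, so that Nup43 ordered the 4 groups completely. Its rise was 1.47 ± 0.06 (SE) on the log2 scale (limma adjusted p = 1.27e-11). The other 3 were Nup107 at 1.32, Nup160 at 1.10 and Nup37 at 0.97.

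The inner ring, which holds the scaffold to the membrane and the channel, rose as a group of 5 of 5 with a median of 1.20. Nup93, its linker subunit, had 284, 263 and 289 CPM in male PGCs and 64.3, 50.1 and 60.8 CPM in male soma. In females the levels were 323, 327 and 322 CPM in PGCs and 68.7, 77.5 and 68.4 CPM in soma. Every PGC value exceeded all soma values of either sex, and the log2 fold change of Nup93 was 1.80 ± 0.05 (SE, limma adjusted p = 5.01e-13). Nup188 and Nup205, the large paralogous scaffold subunits, rose by 1.27 and 1.20. Nup155 and Nup35 rose less, by 0.57 and 0.39, with log2 fold changes of 1.10 and 0.81 in males and of 0.05 and -0.04 in females, where they did not pass the test.

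Among the channel and mobile FG nucleoporins, 4 of 4 rose, with a median of 0.81, although Nup62cl carries a limit given below. Nup62, the central channel subunit, rose by 1.07, Nup98, which shuttles on and off the pore, by 0.55, and Nup54 by 0.34. Nup62cl, named for its likeness to the Nup62 C-terminus, was the member with the fewest reads. It had 23.0, 13.3 and 16.1 CPM in male PGCs and 1.86, 3.67 and 3.37 CPM in male soma, and 14.5, 15.2 and 10.8 CPM in female PGCs. In female soma its 1.11, 1.07 and 0.636 CPM stood for 10, 7 and 5 reads. All PGC libraries lay above all soma libraries, with a log2 fold change of 1.67 ± 0.12 (SE). Nup62cl reached the floor of the measured genes, 5.07 CPM in the third highest library, only through its PGC libraries. Its separation and its call are therefore not independent of that floor and are given as description. At the cytoplasmic face Nup88 rose by 1.21 and Nup214, its partner in docking export complexes, by 0.87. In the nuclear basket Nup153 rose by 1.124. Nup50, which helps to release importin alpha from cargo, did not pass the test averaged over the sexes. It had 119 to 128 CPM in male PGCs and 106 to 122 CPM in male soma. In females it had 116.5 to 119.6 CPM in PGCs and 103 to 128 CPM in soma, and all 4 CPM ranges overlapped. In males alone Nup50 passed as higher, by 0.18, and on the read depth values every male PGC library lay above every male soma library.

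**Figure D2:**
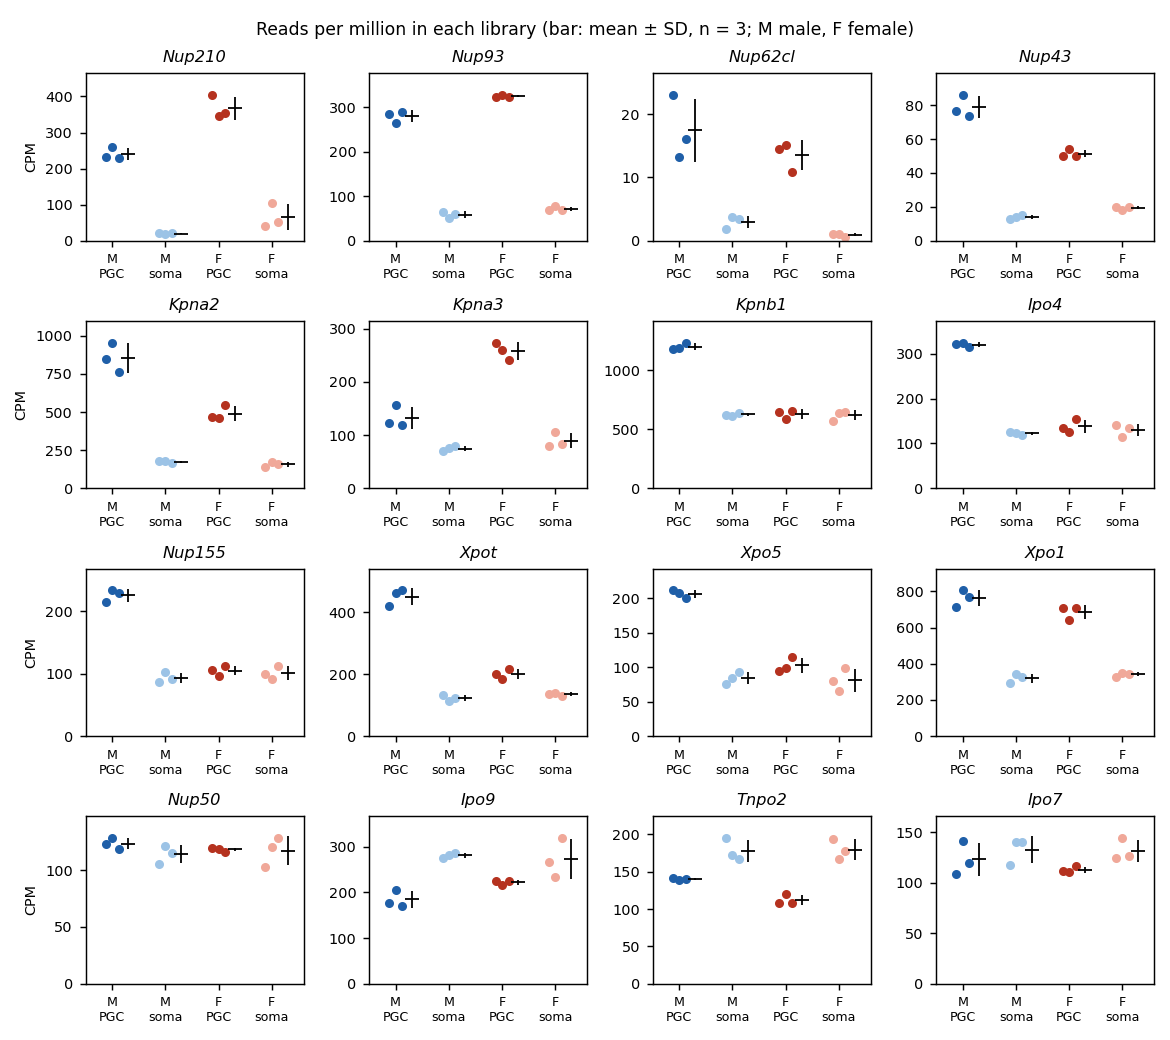
CPM in each of the 12 libraries for 16 members (blue male, red female, dark PGC, pale soma), with the mean ± SD of 3 libraries beside the points. Nup210, Nup93, Nup43 and Kpna2 are high in PGCs of both sexes, Ipo4, Nup155 and Kpnb1 are higher in male PGCs than in the other 3 groups, Kpna3 is highest in female PGCs, and Tnpo2 is lower in PGCs.

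All 5 importin alpha genes rose averaged over the sexes, with a median of 0.90, and Kpna2 led them. Kpna2, an importin alpha adaptor for classical localization signals, had 849.5, 955 and 761 CPM in male PGCs and 177, 177 and 168 CPM in male soma. Female PGCs had 468, 461 and 544 CPM and female soma 142, 174 and 157 CPM. Male PGCs were the highest, female PGCs intermediate and both somas low, with no overlap between PGC and soma or between the PGCs of the sexes. The log2 fold change of Kpna2 was 1.62 ± 0.06 (SE, limma adjusted p = 3.36e-12). Kpna3 and Kpna6 rose by 0.97 and 0.90. Kpna1 and Kpna4 rose by only 0.20 and 0.18, and passed the test in females but not in males, where their log2 fold changes were 0.14 and 0.05.

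The 11 members of the importin beta family, which includes the transportins, were the most divided group: 7 rose, 2 fell and 2 did not pass the test, with a median of 0.43. Ipo5, an importer of ribosomal proteins and histones, had 672, 773 and 680.2 CPM in male PGCs and 288, 281 and 277 CPM in male soma, and 649, 622 and 598 CPM in female PGCs and 297, 324 and 353 CPM in female soma. Its PGC levels exceeded every soma level in both sexes, with a log2 fold change of 0.96 ± 0.05 (SE, limma adjusted p = 9.02e-11). Ipo8 rose by 0.88, Ipo4 by 0.63, Ipo11 by 0.58, Tnpo1 by 0.44, Kpnb1 by 0.43 and Tnpo3, the importer of SR splicing factors, by 0.15. The call for Tnpo3 was lost with reads tested by limma's voom (adjusted p = 0.0685) and without female soma replicate 1 (adjusted p = 0.053).

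The members that fell were both import receptors. Tnpo2, a close relative of Tnpo1 that imports RNA-binding proteins, had 141, 139 and 140.1 CPM in male PGCs and 195, 172 and 166 CPM in male soma. In females it had 108, 120.2 and 108 CPM in PGCs and 194, 167 and 178 CPM in soma. Soma was above PGC in every library of both sexes, and Tnpo2 fell by 0.35 on the log2 scale (SE 0.05, limma adjusted p = 1.06e-05), while Tnpo1 rose. Ipo9, an importer of histones, had 177, 206 and 170.1 CPM in male PGCs and 276, 282 and 286 CPM in male soma. Female PGCs had 226, 216 and 225 CPM and female soma 267, 234 and 319 CPM. Female soma replicate 2 came within 10 CPM of the female PGCs without overlap, and Ipo9 fell by 0.31 on the log2 scale (SE 0.06, limma adjusted p = 0.000226). Ipo7, an importer of ribosomal proteins, spanned 109 to 141 CPM in PGCs and 118 to 144 CPM in soma, and Ipo13, which works in both directions, spanned 53.9 to 78.6 CPM in PGCs and 60.0 to 78.6 CPM in soma.

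All 6 exportins rose, with a median of 0.80. Xpo1 (CRM1), which exports proteins with leucine-rich signals, had 714, 806 and 771 CPM in male PGCs, 291, 341 and 326 CPM in male soma, 711, 641 and 708 CPM in female PGCs and 328, 349.5 and 345 CPM in female soma. The female PGC libraries lay just below the male ones, and both lay above every soma library, and the log2 fold change of Xpo1 was 0.96 ± 0.04 (SE, limma adjusted p = 3.76e-11). Xpot, which exports transfer RNA, rose by 1.02, Xpo6, the actin exporter, by 0.85, Xpo4 by 0.76, Xpo5, the exporter of microRNA precursors, by 0.70 and Xpo7 by 0.27. Xpo7 is known for high levels in maturing red cells. Its 3 female soma libraries had 182, 322 and 189 CPM, beside 29387, 27067 and 17493 CPM of summed erythroid markers, whose part in the result was not tested.

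The promoters of the 4 members that rose most and of both that fell are shown so that the genes behind these values can be compared in sequence. The place of Nup62cl among the 4 carries the limit given above. Each is 100 bases of GRCm38.p6, 5′ to 3′ on the gene's own strand, in lower case with capitals for a match to a searched motif. It ends at the base before the most upstream start in RefSeq or GENCODE. That start lies 144 bases upstream of the RefSeq start for Nup62cl, and at most 40 bases for the other promoters printed. Nup210 (chr6:91116830-91116929, minus strand) holds 2 GC boxes, Nup93 (chr8:94214464-94214563, plus strand) 1 CCAAT box, and Nup62cl (chrX:140062713-140062812, minus strand) and Kpna2 (chr11:106999542-106999641, minus strand) 1 of each. The falling pair are Tnpo2 (chr8:85036793-85036892, plus strand), with 1 CCAAT box, and Ipo9 (chr1:135430500-135430599, minus strand), with 2 GC boxes and 1 NRF1 motif.
Nup210: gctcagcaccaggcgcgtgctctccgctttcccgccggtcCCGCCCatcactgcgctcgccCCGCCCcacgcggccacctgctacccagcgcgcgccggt
Nup93: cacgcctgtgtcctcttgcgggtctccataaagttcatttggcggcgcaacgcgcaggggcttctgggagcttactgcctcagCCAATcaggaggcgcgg
Nup62cl: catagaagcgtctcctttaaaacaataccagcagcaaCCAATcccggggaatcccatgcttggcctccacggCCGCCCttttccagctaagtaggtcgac
Kpna2: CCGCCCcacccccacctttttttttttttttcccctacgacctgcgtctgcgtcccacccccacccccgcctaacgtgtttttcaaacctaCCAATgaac
Tnpo2: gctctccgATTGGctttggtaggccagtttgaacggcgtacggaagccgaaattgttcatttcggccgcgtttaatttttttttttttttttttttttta
Ipo9: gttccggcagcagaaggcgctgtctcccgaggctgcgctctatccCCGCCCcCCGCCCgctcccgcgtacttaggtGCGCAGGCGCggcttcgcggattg

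Over the 250 bases before the RefSeq start, 34 of the 42 members had an entry, and 5 motifs were searched on both strands, each counted without regard to overlap with another. The GC box (GGGCGG) was present in 23 members (67.6%), in 61.4% of the promoters of all genes measured here and in 33% of all RefSeq promoters. The CCAAT box (CCAAT) was present in 17 members (50%), in 36.8% of measured genes and in 34.5% of all promoters. The E-box (CACGTG) was present in 6 members (17.6%), against 8.6% and 6.04%, the ETS motif (CCGGAAG) in 6 members (17.6%), against 13.8% and 7.07%, and the NRF1 motif (GCGCA, any base, then GCGC) in 5 members (14.7%), against 8.6% and 3.87%. These matches describe letters in the window and are not evidence of binding.

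Per cell, every member was higher in PGCs. On the values scaled to cell number, 42 of 42 members were higher averaged over the sexes (limma), where 74.3% of all genes were higher, and the members' median log2 fold change was 3.06 against 1.89 for all genes. The fold changes ran from 1.52 for Tnpo2 to 5.20 for Nup62cl, with Nup210 at 5.13. The value of Nup62cl carries the limit given above, since it reached the floor of the measured genes only in PGCs. Relative to the all-gene median, 39 members lay above it, and Ipo7 (1.86), Ipo9 (1.58) and Tnpo2 (1.52) lay below. In each sex alone, 42 of 42 were higher (all genes 64% in males and 77.2% in females). The 2 sets of values come from the same reads and are not independent. The per cell values depend on the spike-in scaling, which was not checked against spike-in reads here, and library medians on that scale differed within a group: male soma replicate 3 lay at 5.25, and replicates 1 and 2 at 4.33 and 4.29. Such shifts are shared by all genes of a library, so the genes' calls on that scale are not independent of each other.

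**Figure D3:**
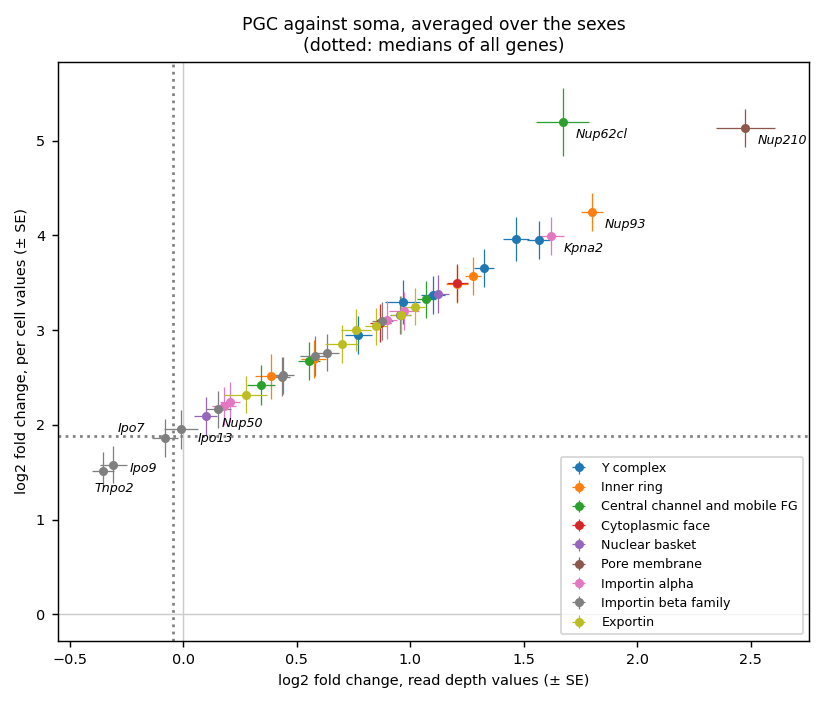
Log2 fold change of PGC against soma averaged over the sexes for the 42 members, on read depth values (x axis) and per cell values (y axis), each ± SE, coloured by role, with dotted lines at the medians of all 12845 genes. All members lie above 0 on the y axis, and Tnpo2, Ipo9 and Ipo7 are the members below the dotted all-gene median there.

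In a direct comparison of the sexes, most nuclear transport genes were lower in female than in male PGCs. Of the 42 members, 25 were lower in female PGCs (59.5%), where 32.5% of all genes were lower, and 3 were higher (7.14%), where 32.8% of all genes were higher (limma, read depth values). The members' median log2 fold change was -0.25 and that of all genes 0.01. The 3 higher members were all importin alpha genes. For 27 members every female PGC library lay below every male one (34.7% of all genes), and for 5 every one lay above (35.4%). With reads tested by limma's voom, which puts the all-gene median at 0.18 here, the members' median was -0.16. Per cell, 1 member, Kpna3, was higher in female PGCs (all genes 24.3%) and 11 were lower (all genes 17.7%). This comparison shares its PGC libraries with the comparisons against soma.

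Ipo4, Xpot, Nup155 and Xpo5 had the largest differences. Ipo4, which imports histones and ribosomal proteins, had 321, 324 and 314 CPM in male PGCs and 134, 126 and 155 CPM in female PGCs, beside 119.5 to 125 CPM in male soma and 115 to 142 CPM in female soma. Male PGCs stood alone, and the female PGC range overlapped female soma. Its female against male PGC log2 fold change was -1.09 ± 0.07 (SE, limma adjusted p = 3.17e-08). Xpot had 419, 461 and 470.1 CPM in male PGCs and 199.8, 183 and 217 CPM in female PGCs, beside 114 to 133 CPM in male soma and 129 to 140.4 CPM in female soma. Female PGCs lay between male PGCs and soma, and the log2 fold change of Xpot was -1.06 ± 0.06 (SE, limma adjusted p = 1.3e-08). Nup155, an inner ring subunit that contacts the membrane, had 215, 234 and 230.3 CPM in male PGCs and 106, 96.8 and 112 CPM in female PGCs, beside 86.1 to 102 CPM in male soma and 90.8 to 112 CPM in female soma. The female PGC and female soma ranges of Nup155 overlapped, with a log2 fold change of -0.996 ± 0.08 (SE, limma adjusted p = 1.08e-07) against male PGCs. Xpo5 had 211, 208 and 199.7 CPM in male PGCs and 94.6, 98.2 and 114 CPM in female PGCs, beside 74.9 to 92.5 CPM in male soma and 65.5 to 98.3 CPM in female soma. Its log2 fold change was -0.92 ± 0.10 (SE, limma adjusted p = 3.05e-06), and its female PGC range overlapped that of female soma. Kpnb1, the main import carrier, had 1177, 1191 and 1232 CPM in male PGCs and 643, 583 and 657 CPM in female PGCs, beside 615 to 637 CPM in male soma and 570.3 to 648 CPM in female soma. The other 3 groups overlapped and lay far below male PGCs, with a log2 fold change of -0.87 ± 0.05 (SE, limma adjusted p = 1.52e-08).

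Of the nucleoporins, 11 of 20 were lower in female PGCs and 0 were higher, where 32.5% of all genes were lower and 32.8% higher. Besides Nup155 the lowest were Nup35 (-0.79), Nup37 (-0.75), Nup54 (-0.65), Nup43 (-0.58) and Nup98 (-0.57). Nup37, a small Y complex subunit, had 71.0, 58.7 and 64.1 CPM in male PGCs, 33.7, 32.5 and 41.1 CPM in female PGCs, 17.0 to 18.9 CPM in male soma and 17.6 to 26.4 CPM in female soma. The Y complex was thus not uniform, since Nup133 and Nup160 had log2 fold changes of -0.03 and -0.09, which did not pass the test. Nup93 (0.06) and Nup210 (0.39) did not pass it either, although every female PGC library was above every male one for both genes. With voom on the reads both passed, at 0.22 for Nup93 (adjusted p = 0.017) and 0.63 for Nup210 (adjusted p = 0.00104). The median of all genes was 0.18 in that fit, with 5025 of 12845 genes higher, so Nup93 lay near the typical gene there.

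**Figure D4:**
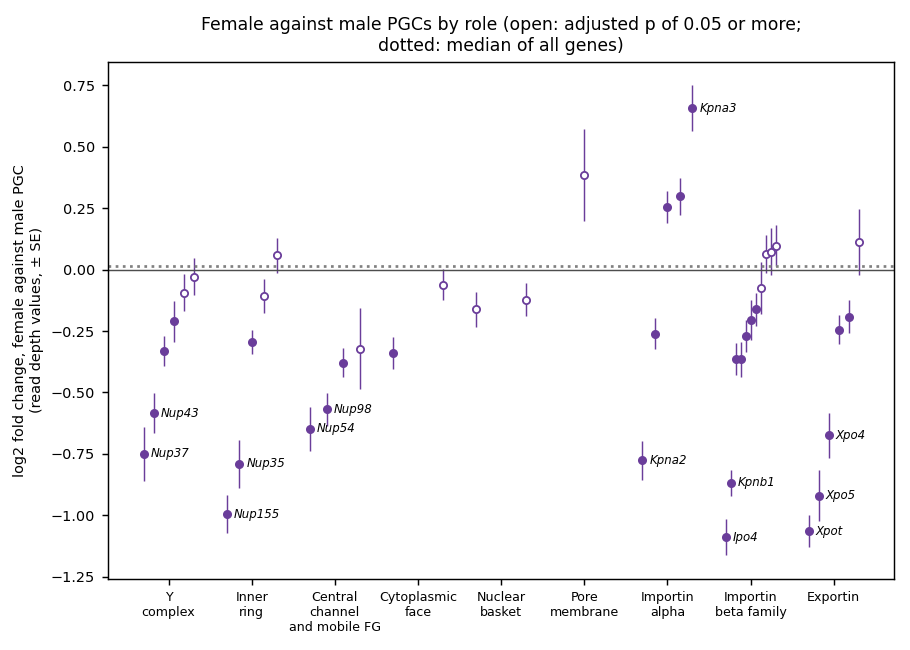
Log2 fold change of female against male PGCs (read depth values, ± SE, 3 libraries a group) for the 42 members by role. Filled points have an adjusted p under 0.05, the dotted line is the median of all genes at 0.01, and names mark members past 0.55 in either direction. Importin alpha holds the 3 members that are higher in females, and the lowest points are Ipo4, Xpot and Nup155.

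Within the importin alpha family the PGCs of the sexes differed in composition. Kpna3 had 123, 157 and 119 CPM in male PGCs and 274, 260.4 and 241 CPM in female PGCs, above the 69.5 to 79.7 CPM of male soma and the 79.6 to 105 CPM of female soma. Kpna3 was higher in every female than in every male PGC library, with a log2 fold change of 0.66 ± 0.09 (SE, limma adjusted p = 3.09e-05). Kpna4 had 83.9, 108 and 90.1 CPM in male PGCs and 139, 134 and 132 CPM in female PGCs (log2 fold change 0.30), and Kpna1 had 56.3, 57.5 and 58.4 CPM in male PGCs and 79.5, 85.7 and 75.7 CPM in female PGCs (0.26). Kpna2 and Kpna6 were lower in female PGCs, by log2 fold changes of -0.78 and -0.26. Per kilobase of exon, Kpna2 made up 77.8 to 80.1% of the family's reads in male PGCs, 58.8 to 63.9% in female PGCs, 53.5 to 56.8% in male soma and 50.3 to 51.9% in female soma. Kpna3 made up 7.75 to 8.75% in male PGCs and 18.95 to 23.1% in female PGCs. Shares within a family depend on the annotated exon lengths and are not independent of each other. These paralogs, as well as a processed pseudogene of Kpna2, can share reads.

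The exportins also divided differently. Xpot made up 29.7 to 31.3% of exportin reads per kilobase in male PGCs and 18.1 to 19.5% in female PGCs, while Xpo1 made up 42.6 to 43.6% in male and 53.1 to 54.7% in female PGCs. In soma Xpot held 19.0 to 23.3% and Xpo1 43.0 to 48.0%.

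**Figure D5:**
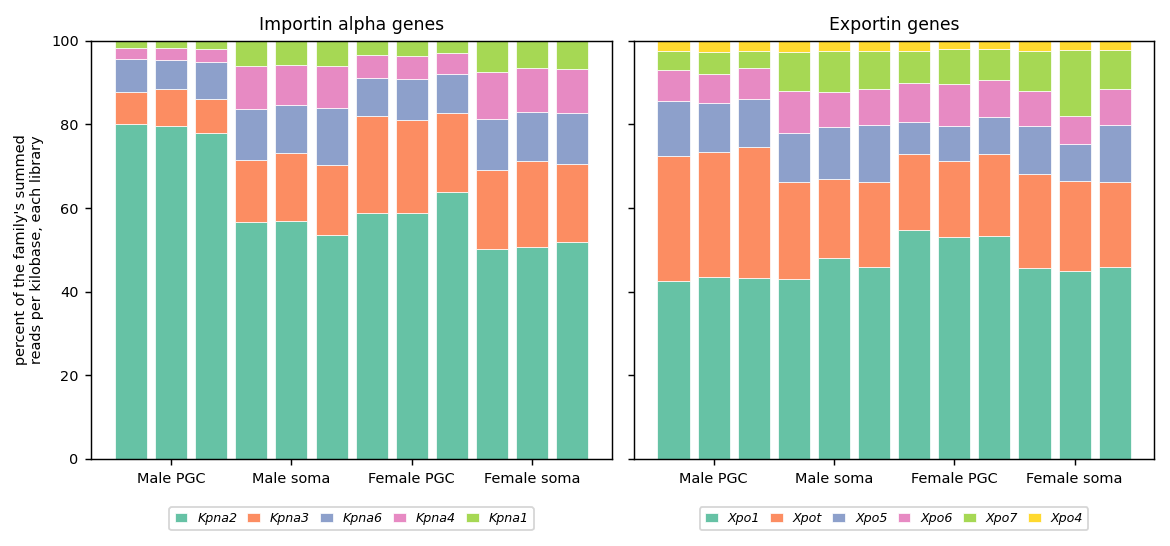
Share of each family's summed reads per kilobase in each of the 12 libraries, for the 5 importin alpha genes (left) and the 6 exportins (right), stacked to 100%. Kpna2 takes the largest share in male PGCs (77.8 to 80.1%), Kpna3 a larger share in female than in male PGCs, and Xpot its largest share in male PGCs.

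The promoters of 3 genes lower in female PGCs and of 1 higher importin alpha gene are given for comparison, in the same format. Xpot (chr10:121626333-121626432, minus strand) holds 1 GC box, Nup155 (chr15:8109173-8109272, plus strand) 1 CCAAT box, and Xpo5 (chr17:46202682-46202781, plus strand) 2 NRF1 motifs. Kpna4 (chr3:69127114-69127213, minus strand) holds 2 CCAAT boxes. No motif of the 5 was common to these 3 printed genes within these 100 bases, which says nothing about the other members lower in female PGCs. Ipo4, which had the largest difference, is not printed, since its most upstream start lies too far from its RefSeq start.
Xpot: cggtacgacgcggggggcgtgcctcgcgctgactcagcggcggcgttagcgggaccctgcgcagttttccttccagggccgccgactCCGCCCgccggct
Nup155: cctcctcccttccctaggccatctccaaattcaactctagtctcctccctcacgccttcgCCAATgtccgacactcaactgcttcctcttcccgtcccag
Xpo5: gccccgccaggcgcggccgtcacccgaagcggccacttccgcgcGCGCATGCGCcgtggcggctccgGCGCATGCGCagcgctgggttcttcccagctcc
Kpna4: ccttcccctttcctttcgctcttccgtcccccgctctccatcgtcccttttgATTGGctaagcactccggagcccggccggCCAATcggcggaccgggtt

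The change from soma to PGC also differed between the sexes for many members, by a test of the difference itself. The female minus male difference was negative for 22 members (52.4%, all genes 28.9%) and positive for 1, Kpna3 (all genes 27.9%). The 22 include Tnpo2, which fell in both sexes and fell further in females. Numerically, 35 of 42 members had a higher log2 fold change in males, against 50.8% of all genes. The largest differences, female minus male, were -1.16 ± 0.09 for Xpot (SE, limma adjusted p = 3.53e-07), -1.14 ± 0.10 for Ipo4 (adjusted p = 1.22e-06), -1.06 ± 0.11 for Nup155 (adjusted p = 3.22e-06) and -0.96 ± 0.16 for Nup37 (adjusted p = 0.000161). In all, 7 members, Nup155, Nup35, Nup54, Nup50, Ipo4, Kpnb1 and Xpo7, passed the test as higher in males and did not pass it in females (all genes 6.72%). Of these, Nup50 and Xpo7 did not pass the test of the difference. In the opposite direction, 3 members, Kpna1, Kpna4 and Tnpo3, passed as higher in females and not in males (all genes 6.13%), and none of these 3 passed the test of the difference. On the per cell values these differences took another form: 7 members had a larger change in females (all genes 42.8%) and 0 a smaller one (all genes 5.16%), and the median of all genes was 0.91. The members' median there was 0.60, below that of all genes, as it was on the read depth values.

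Between the somas few members differed. Nup210, Nup43 and Nup93 were higher in female soma (13.3% of all genes) and Nup62cl was lower (11% of all genes). Nup210 had the largest difference, with the library values given above and a log2 fold change of 1.19 ± 0.19 (SE, limma adjusted p = 0.000336). In female soma replicates 1 to 3 it had 40.6, 106 and 51.7 CPM, beside 89.7, 149.7 and 15.8 CPM of summed germ cell markers. Summed macrophage markers in these libraries were 299, 386 and 251 CPM, against 121 to 170 CPM in male soma. Summed erythroid markers were 29387, 27067 and 17493 CPM, against 3358 to 8529 CPM in male soma. Without female soma replicates 1 and 2 the log2 fold change of Nup210 was 1.03, which rests on female soma replicate 3 alone. Without female soma replicate 2 it was 0.89. The part of these cell types in the difference was not tested. Nup43 differed by 0.29, Nup93 by 0.20 and Nup62cl by -0.61, and these 3 calls were lost with voom on the reads (adjusted p = 0.0713, 0.0512 and 0.162). Per cell, 38 members were lower in female soma (all genes 63.6%) and 1, Nup210, was higher (all genes 2.86%). The members' median log2 fold change there was -0.83, close to the -0.86 of all genes. That all-gene median was -0.54 without male soma replicate 3, and the source of the shift was not tested.

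Per kilobase of exon, the most abundant members were transport receptors. The length used is that of all annotated exons of a gene together, from 2234 bases for Nup62cl to 19005 for Xpo7. Which transcripts were present was not measured, so ranks between genes are approximate. Averaged over the 4 groups, Kpna2 had 146 RPKM (reads scaled to exon length and library total), Kpnb1 117, Ipo5 80.8 and Xpo1 73.5, followed by Nup62 at 61.2, the most abundant nucleoporin. Kpna2 had 298 RPKM in male PGCs, 171 in female PGCs, 60.6 in male soma and 54.9 in female soma, so that it ranked first of the members in PGCs, while Kpnb1, at 94.9 and 93.9 RPKM, ranked above it in both somas. At the other end were Ipo8 at 6.59, Nup62cl at 3.90 and Xpo4, the exporter of a translation factor, at 3.74 RPKM. Reads of Nup35, Nup62, Nup188, Nup214, Ipo4, Tnpo2, Xpo4 and Xpo7 may include those of a gene annotated on the same strand over them. The strand setting of the counting is not given in the labels, so reads of Nup62, Nup88, Nup214, Tnpo2 and Tnpo3 and of the measured genes annotated opposite to them cannot be told apart with certainty. The same holds for Nup133, Nup188, Ipo8, Ipo11 and Kpnb1, which lie opposite to genes not analysed here.

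The other genes of nuclear transport were taken from 3 lists. Of 19 measured genes of the Ran cycle and of pore proteins named otherwise, 15 were higher in PGCs and 3 lower averaged over the sexes, where 41.4% of all genes were higher and 45.3% lower, with a median of 0.59 against -0.04 for all genes. Ran itself had 957 to 1134 CPM in male PGCs, 617 to 723 CPM in female PGCs and 335 to 411 CPM in soma. The largest changes were Nupl1, the Nup62 partner also called Nup58, at 1.77, Aaas (ALADIN) at 1.43 and Rae1, an RNA export factor, at 1.42. Nupl1 had 192 to 223 CPM in male PGCs, 242 to 247 CPM in female PGCs and 45.3 to 57.5 CPM in soma, so that PGCs and soma did not overlap. The lower ones were Nutf2, which carries Ran into the nucleus (-0.64), Pom121, a membrane nucleoporin (-0.51), and Sec13, a Y complex subunit (-0.33). Between PGCs, 3 of the 19 were higher and 11 lower in females, where 32.8% of all genes were higher and 32.5% lower.

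Of 23 genes of messenger RNA export, 13 were higher in PGCs, 6 were lower and 4 did not pass the test, against the same 41.4% and 45.3% of all genes, with a median of 0.52. The helicase gene Ddx19b (1.78), the cap-binding gene Ncbp1 (1.24) and the adaptor gene Alyref (1.22) changed most, while Ddx19a, the near-identical neighbour of Ddx19b with which it may share reads, was lower (-0.71). Of 17 genes of the nuclear lamina and envelope, 5 were higher and 10 lower, against those 41.4% and 45.3% of all genes, with a median of -0.23. Lmna, which encodes the A-type lamins, had 0.861 to 2.15 CPM in male PGCs and 5.64 to 10.5 CPM in female PGCs, against 68.9 to 83.3 CPM in male soma and 79.0 to 112 CPM in female soma. PGCs of both sexes lay far below soma, with a log2 fold change of -3.29 ± 0.13 (SE, limma adjusted p = 1.14e-11). Lmnb1 and Syne2, for lamin B1 and the envelope protein nesprin-2, had log2 fold changes of -1.49 and -1.37. On the per cell values Lmna was still lower in PGCs (-2.66), and Lmnb1 (0.07) and Syne2 (0.18) did not pass the test.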

How the data were processed

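RNA was measured in 12 libraries, whose titles gave the groups and replicate numbers. Per the labels' protocols, cells were sorted by the reporter, spike-in RNA (ERCC) was added per cell number, and a directional kit for messenger RNA was used. Per the submitters' processing notes, the genome build was mm10 and the tools were limma 3.28.14, edgeR 3.14.0, DESeq2 1.12.3, R 3.3.0, HTSeq 0.6.1p1, TopHat2 2.0.9 and Trim Galore 0.4.0. What each did, which annotation was counted and how genes were filtered is not stated there.

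The authors deposited 2 tables of log2 values over the same 12845 genes. One is scaled to read depth by a transform not stated in these sources. The other was read as scaled to cell number, since its name is an abbreviation. In the latter, 100% of values in each library equalled log2 of a whole number of reads plus 0.5 over an effective size, within 0.001 reads, and these reads gave depth, CPM and RPKM (exon lengths from GENCODE vM21, GRCm38, in which 42 of 42 members were found). The third highest library of each gene was at 5.07 CPM or more, so low genes were not analysed here. All 42 members passed, Nup62cl through its PGC libraries only. Intervals between libraries cover the spread of 3 samples only.

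The deposited log2 values of the 12 libraries were fitted together with limma 3.58.1 (R 4.3.3), with a mean for each of 4 groups and the variance trend on intensity; p-values were adjusted by Benjamini-Hochberg over 12845 genes, with a threshold of 0.05. The scripts were tested on simulated data. Replicates of a group differed by more than sampling noise, with chi-square at 5.43 to 30.4 per degree of freedom. Alternatives were a filter leaving out the lowest 25% of genes, median centring, voom on reads, a replicate block, only the groups compared, leaving out each library, and, added after seeing the data, leaving out female soma replicates 1 and 2. The labels give no batch.

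Members, role groups and gene lists (Ran cycle, messenger RNA export, lamina, and germ cell, gonadal soma, erythroid, macrophage and endothelial markers) were chosen with earlier results of these data known. Library values are given for the members with the 6 largest rises and up to 6 largest falls among non-overlapping groups, the 4 largest differences between sexes in change and in PGCs, the 3 largest in soma and the 3 highest per kilobase. Values are also given for Kpna1, Kpna3, Kpna4, Kpnb1, Nup50, Ipo7, Ipo13, Xpo1 and Xpo7, which were chosen after their values were seen. Promoters came from the RefSeq table (GRCm38.p6).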

Additional observations from a re-analysis of the deposited data

Results flagged for a closer look

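The change from soma to PGC differed between the sexes for 23 of the 42 members by limma's test of the difference (adjusted p under 0.05, read depth values). There the female minus male difference was negative for 28.9% and positive for 27.9% of all genes. Values are the female minus the male log2 change. In the Y complex they were -0.29 for Nup107, -0.96 for Nup37, -0.88 for Nup43 and -0.32 for Nup85. In the inner ring they were -1.06 for Nup155, -0.26 for Nup188 and -0.85 for Nup35. Among the other nucleoporins they were -0.66 for Nup54, -0.33 for Nup62, -0.49 for Nup98, -0.26 for Nup88 and -0.81 for Nup210. Among the receptors they were -0.64 for Kpna2, 0.49 for Kpna3, -1.14 for Ipo4, -0.40 for Ipo5, -0.26 for Ipo8, -0.83 for Kpnb1 and -0.36 for Tnpo2. Among the exportins they were -0.30 for Xpo1, -0.61 for Xpo4, -0.85 for Xpo5 and -1.16 for Xpot. The sign is negative in 22 of the 23. For Tnpo2, which was lower in PGCs in both sexes, a negative value means a larger fall in females. On the per cell values, where the median difference of all genes was 0.91, 13 of the 23 had the opposite sign, with the values given in the next section.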

How the results depend on the processing

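On read depth values, the 37 members higher in PGCs averaged over the sexes numbered 36 without the lowest 25% of genes, 40 with median centring, 36 with voom and 36 without female soma replicates 1 and 2. The members lower numbered 2, and were 1 with median centring, 3 with voom and 3 without male PGC replicate 2. On per cell values 0 members were lower, and 1 was with median centring, which removes the scaling to cell number. The 4 calls between somas became 2 without the lowest 25% of genes (which leaves out Nup62cl), 1 with voom and 1 without female soma replicates 1 and 2. They were 2 without male soma replicate 2, male soma replicate 3 or female soma replicate 3.

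Leaving out each library gave 36 to 38 members higher and 2 to 3 lower, 42 to 42 higher and 0 to 0 lower per cell, 34 to 37 calls in males, 31 to 34 in females, 24 to 29 between PGCs, 2 to 4 between somas and 20 to 25 for the difference between sexes. The count for that difference was 18 with voom and 27 with median centring. Fits of only the groups compared were not run for the average over the sexes or the difference between sexes, which use all 4 groups.

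The replicate numbers did not pair the libraries: deviations of same-numbered libraries correlated at -0.361 to 0.0715, and the labels give no pairing. With the replicate number as a block, 37 members were higher and 2 lower, 42 were higher per cell, and 37 were called in males, 34 in females, 27 between PGCs, 3 between somas and 23 for the difference between sexes.

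Ipo13, not called at -0.01, was 0.21 with median centring, 1.95 per cell and -0.049 to 0.058 without single libraries. Ipo7 was 0.14 with median centring. Signs that reversed per cell were those of Ipo7 (1.86), Ipo9 (1.58) and Tnpo2 (1.52) in PGC against soma, and of Nup43 (-0.45) and Nup93 (-0.60) between somas. For the difference between sexes they were Nup107 (0.56), Nup85 (0.52), Nup188 (0.60), Nup54 (0.064), Nup62 (0.52), Nup98 (0.30), Nup88 (0.61), Kpna2 (0.15), Ipo5 (0.42), Ipo8 (0.60), Tnpo2 (0.47), Xpo1 (0.55) and Xpo4 (0.12), and the cause was not tested. Between 3 libraries a group, small differences are not detectable at this depth for low genes such as Nup62cl.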
